A study of Mus musculus with 8 samples.

Results

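The genes of the proteasome, the barrel-shaped protease that degrades ubiquitin-tagged proteins, were followed across 8 single myocardial cells of the mouse heart tube. Members were all genes on the array whose symbol is Psma to Psmg followed by a digit, read by non-control probes, with the probe of highest mean log2 signal kept for each gene. This gave 49 genes, read by 62 probes, of 22594 genes with a RefSeq symbol on the array. Of these, 19 belonged to the core particle (Psma and Psmb), 24 to its regulators (Psmc, Psmd and Psme) and 6 to neither. Cells were taken at embryonic day 8.5, at 9 somites, from hearts dissociated with trypsin. Each array held Cy3-labelled material from 1 cell, made from RNA that was transcribed from its amplified cDNA. The authors had typed each cell by PCR of marker genes. The 4 WT cells were Mesp1+/+ and Sox17flox/flox, and the 4 KO cells were Mesp1Cre/+ and Sox17flox/flox, so both groups carried the floxed Sox17 alleles and only the KO cells carried Cre, which the Mesp1 locus drives in early mesoderm. The labels named no embryo. Each genotype is therefore 1 sample of cells, no test was made, and each SD is the spread between 4 cells. The WT arrays were on 1 slide and the KO arrays on another, and a difference between slides cannot be told apart from one between genotypes.

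The core particle is a stack of rings, with outer alpha rings that gate the chamber and inner beta rings that hold the proteolytic sites. Caps sit on its ends: the base of the regulatory particle holds a ring of ATPases that unfold the substrate and pull it in, and the lid carries the enzyme that removes ubiquitin before degradation. Dedicated chaperones build the rings, and immune-type beta subunits can replace the standard catalytic ones. In heart muscle the proteasome takes part in the turnover of sarcomere proteins.

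All 10 myocardial markers, among them Actc1, Myh6 and Tnnt2, were detected in every cell, and none of 7 erythroid markers in any. Of 13 endothelial markers, 2 to 4 were detected per cell, with Kdr and Plvap in every cell, Pecam1 in 6 cells, and Cdh5, Tek and Emcn in none. Of 6 macrophage markers 0 to 2 were detected in WT and 1 to 2 in KO cells, mainly Csf1r (6 cells) and Cd68 (5 cells). The part of RNA from other cells in the results was not tested. The 2 Sox17 probes and the Mesp1 probe were detected in no cell, so the deletion could not be checked. The share of probes well above background, called detected below, was 19.6% to 25.98% in WT and 17.1% to 24.3% in KO cells. Values below are log2 signals after each array was scaled to a common level, with signals under 50 set to 50 (5.64 on the log2 scale, called the floor). A spot could be flagged as detected and still lie at the floor, and a difference that involves cells at the floor is set in part by it. Levels are compared between cells for the same probe and never between probes.

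Proteasome genes were seen more often than genes at large, but not evenly. Of the 49 members, 13 were detected in all 8 cells, against 2194 of 22594 genes on the array. Members detected in at least 4 cells, called measured, numbered 38, and 5 were detected in none. The latter were Psma8, the testis-specific alpha subunit, the immune subunit Psmb9, the thymus subunit Psmb11, the base chaperone Psmd10 and the inhibitor Psmf1. In each WT cell, 26, 37, 41 and 38 members were detected, and in the KO cells 32, 22, 31 and 39. WT cell 1 and KO cell 2 were the lowest of their genotypes. Of 23 members not detected in WT cell 1 and 27 not detected in KO cell 2, 17 were the same genes. The 17 include the 5 detected in no cell. With counts this large among 49 genes, much overlap would arise without any link between the cells.

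**Figure D1:**
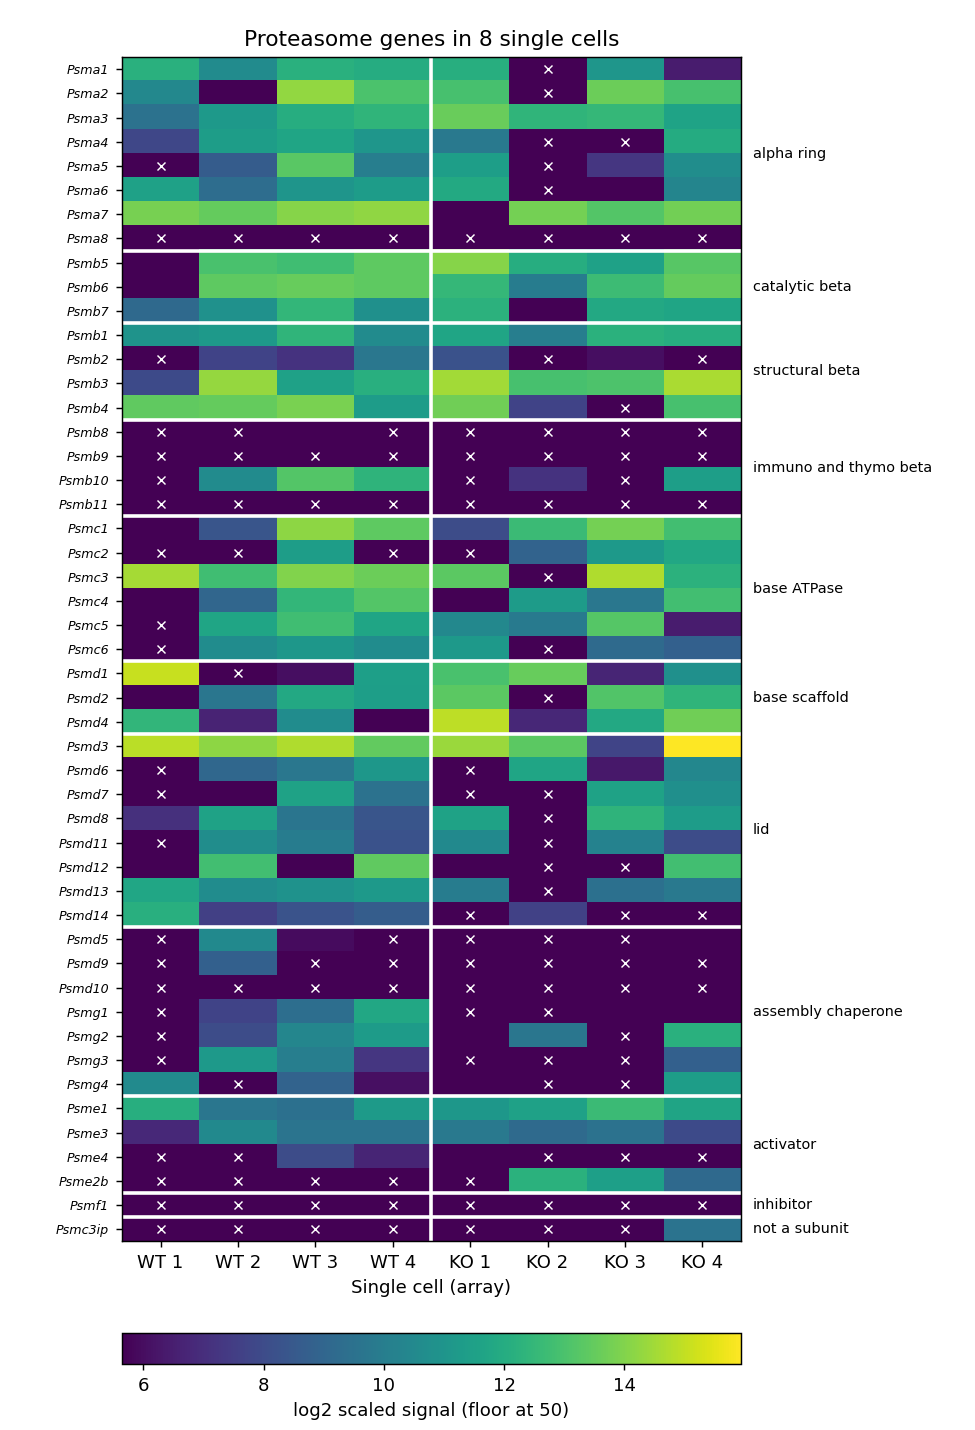
Log2 scaled signal (colour, floor at 50) of the 49 members (rows, grouped by role) in the 8 single cells (columns), with a white cross where the probe was not detected. KO cell 2 is at the floor for most alpha-ring genes, and WT cell 1 for Psmb5, Psmb6 and most base ATPases.

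The alpha ring had 7 measured genes, of which 5 were lower and 2 higher in mean in the KO cells. With cells given in the order 1 to 4, Psma1 read 12.19, 10.61, 12.18 and 12.004 in WT and 12.10, 5.64, 11.04 and 6.41 in KO. The WT cells lay close together, and KO cells 2 and 4 were the low ones. The means were 11.74 ± 0.76 in WT and 8.80 ± 3.24 in KO (SD, n = 4 cells), 7.7-fold lower, with KO cells 1 and 3 inside the WT range. Psma6 read 11.52, 9.32, 11.03 and 11.34 in WT cells and 11.90, 5.64, 5.64 and 10.33 in KO cells, 5.37-fold lower in mean, with KO cells 2 and 3 at the floor, KO cell 4 inside the WT range and KO cell 1 above it. Their probes lie at chr7:121408229-121408288 and chr12:56511127-56511186 of the mm9 build, the build of the array files.

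Psma2 and Psma3 marked the ends of the spread between cells. Psma2 had one of the largest spreads, with 10.45, 5.64, 14.27 and 13.04 in WT cells and 12.93, 5.64, 13.63 and 12.93 in KO cells, so that 1 cell of each genotype sat at the floor and the difference of means was only 0.43. Psma3 had one of the smallest, with 9.50, 11.17, 12.06 and 12.40 in WT cells and 13.57, 12.39, 12.51 and 11.60 in KO cells. It was above the floor in all cells and 2.35-fold higher in mean in KO, with overlapping groups. Psma7, named here after its values were seen because it lay just under the 5-fold rule, was 13.52 to 14.21 in every WT cell and 13.20 to 13.77 in 3 KO cells, and at the floor in KO cell 1 alone. Its difference of -2.31 became -0.33 without that cell.

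The 3 standard catalytic subunits were detected in all 8 cells. Psmb5, the chymotrypsin-like subunit, read 5.64, 13.00, 12.76 and 13.37 in WT cells and 14.09, 12.06, 11.55 and 13.28 in KO cells. Psmb6, the caspase-like subunit, read 5.64, 13.37, 13.53 and 13.37 in WT cells and 12.51, 9.97, 12.70 and 13.50 in KO cells. Both therefore sat at the floor in WT cell 1 and nowhere else. Psmb7, the trypsin-like subunit, was 9.15, 10.86, 12.45 and 10.80 in WT cells and 12.25, 5.64, 11.86 and 11.68 in KO cells, at the floor only in KO cell 2. Their KO minus WT differences were 1.55, 0.69 and -0.46 on the log2 scale, all under the 5-fold rule, and the groups overlapped for each. Without WT cell 1 the first and second became -0.30 and -1.25, so the sign of both rests on that cell. Without KO cell 2 the third became 1.11.

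The structural beta subunits went both ways. Psmb4 read 13.41, 13.49, 13.86 and 11.32 in WT cells and 13.69, 7.71, 5.64 and 12.95 in KO cells, 8.11-fold lower in mean, with KO cells 2 and 3 low and the other two within the WT range. Psmb3 read 7.96, 14.31, 11.52 and 12.12 in WT cells and 14.51, 12.93, 13.05 and 14.64 in KO cells, 4.95-fold higher in mean and just short of the 5-fold rule. Its difference of 2.31 was 1.13 without WT cell 1 and 3.25 without WT cell 2. Psmb1 had the smallest spread of the measured members, at 10.91, 11.16, 12.40 and 10.62 in WT cells and 11.70, 10.05, 12.23 and 12.07 in KO cells. Its means differed by 0.24 and its SD within genotypes was 0.90.

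The immune-type subunits were at or near background. Psmb9 lay at the floor in all 8 cells and was detected in none, and Psmb8 lay at the floor in all 8 although its spot was flagged as detected in WT cell 3. Psmb10 differed from both, with 5.64, 10.60, 13.16 and 12.33 in WT cells and 5.64, 7.13, 5.64 and 11.42 in KO cells. It was detected in 3 WT and 2 KO cells. Its mean was 7.85-fold lower in KO with overlapping groups, but because it was not detected in all 4 cells of either genotype (the condition called present below) it stays outside the 5-fold count.

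The base holds 6 ATPases, all of them measured. Psmc2 differed most, at 5.64, 5.64, 11.38 and 5.64 in WT cells and 5.64, 8.90, 11.15 and 11.81 in KO cells. It was detected in 1 WT and 3 KO cells, and its difference was 2.30. Psmc3, also named after its values were seen, ran the other way at -2.23, and this rested on KO cell 2, the only cell in which it was not detected. The remaining 4 had differences between -0.79 and 1.43.

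The 3 scaffold and ubiquitin receptor genes of the base were all higher in mean in the KO cells. Psmd4, a receptor for ubiquitin chains, read 12.40, 6.65, 10.65 and 5.64 in WT cells and 14.92, 6.80, 11.85 and 13.70 in KO cells, and was 7.89-fold higher in mean. KO cells 1 and 4 were above every WT cell, KO cell 3 above all but 1, and KO cell 2 was low like WT cell 2. Psmd2 read 5.64, 9.67, 11.85 and 11.43 in WT cells and 13.36, 5.64, 13.14 and 12.37 in KO cells. Psmd1 read 15.08, 5.64, 6.02 and 11.46 in WT cells and 12.99, 13.55, 6.71 and 10.82 in KO cells. Their differences were 1.48 and 1.47, and with SDs within genotypes of 3.28 and 3.89 the cells of a genotype lay further apart than the genotype means.

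Of the 8 lid genes, 6 were lower and 2 higher in mean in KO. Psmd14 is the metalloprotease that cuts ubiquitin chains from the substrate. Its spot was above background in 4 WT cells but only 1 KO cell, at 12.12, 7.61, 8.29 and 8.69 in WT cells and 5.64, 7.62, 5.64 and 5.64 in KO cells. The means were 9.18 ± 2.01 and 6.14 ± 0.99 (SD, n = 4 cells), 8.22-fold lower in KO, the largest difference among the present members. KO cell 2 lay level with WT cell 2, and WT cell 1 stood far above the rest. The study put Psmd14 on its list of genes lower in KO cardiomyocytes from these same arrays, so its place on that list is not independent evidence. A single probe carries the value. It lies at chr2:61599058-61599117 (mm9, plus strand) and is shown whole because the finding rests on it:

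Psmd14 probe: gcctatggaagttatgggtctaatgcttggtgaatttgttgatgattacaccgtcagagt

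Psmd13, a structural lid subunit with a probe at chr7:148084248-148084307, was the sole measured member whose genotypes did not overlap. It read 11.73, 10.64, 10.89 and 11.22 in WT cells and 9.98, 5.64, 9.44 and 9.81 in KO cells, 5.29-fold lower in mean. The lowest WT and the highest KO cell were close together, and without KO cell 2 the difference was -1.38. Among all 5425 measured genes, 2.03% had all 4 KO cells below all 4 WT cells and 1.47% had them above, so 1 in 38 members is near that background. Psmd12 had the largest spread in the lid and read 5.64, 12.81, 5.64 and 13.41 in WT cells and 5.64, 5.64, 5.64 and 12.84 in KO cells. It was high or at the floor, with nothing between.

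The chaperones that assemble the rings were seen in few cells. Of 7 chaperone genes, 4 were measured and none was present in all cells of a genotype. Psmg1, which starts the alpha ring, read 5.64, 7.73, 9.38 and 11.83 in WT cells and 5.64 in all 4 KO cells, 8.01-fold lower in mean. All KO cells were at the floor, but so was WT cell 1, and the spot was flagged as detected in 2 KO cells. Psmg2, Psmg3 and Psmg4 had differences of -0.55, -2.11 and -0.72, so all 4 measured members of this group were lower in mean in KO. Over the group, 1, 5, 5 and 4 genes were detected in WT cells and 2, 1, 1 and 5 in KO cells, and KO cell 4 thus held as many as any WT cell.

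Among the alternative caps, Psme1 was above the floor in all 8 cells. Its values were 12.11, 9.68, 9.46 and 11.26 in WT cells and 11.10, 11.55, 12.65 and 11.64 in KO cells, 2.15-fold higher in mean in KO with overlapping groups. It is printed on 10 spots of each array, whose log2 signals within an array had an SD of 0.06 to 0.16, which covers the spots and not the amplification of each cell. Psme2b was detected in no WT cell and read 5.64, 12.22, 11.46 and 9.17 in KO cells, where it was detected in 3. With KO cell 1 and all WT cells at the floor the difference of means was 3.98, and 3.11 without KO cell 2. It is named after its values were seen. The other 2 probes of that name were detected in 2 cells and in none, with differences of 1.40 and 0.00. Psme2b is a retrocopy of Psme2, no probe here was named Psme2, and which copy the probe reads was not tested. Psmc3ip matched the symbol rule but encodes no proteasome subunit and was detected in KO cell 4 alone.

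Read over all measured members, the differences leaned to lower signal in KO, by less than the cells of a genotype differed. The median KO minus WT difference was -0.46 over 38 measured members and 0.00 over all 5425 measured genes. Of all measured genes, 640 had a difference of exactly 0, and 0 of the members did. The mean difference was -0.50 over the members and -0.31 over all measured genes. Without WT cell 3 the members' median was 0.11, and without WT cell 1 it was -1.35. By the 5-fold rule, 5 present members were lower in KO (Psma1, Psma6, Psmb4, Psmd13 and Psmd14) and 1 was higher (Psmd4), out of 26 present. This is 19.2% lower and 3.85% higher. Over all 3364 present genes the shares were 10.7% lower and 2.68% higher, so genes at large leaned to lower signal in KO as well. None of the 6 calls stood in all 8 leave-outs of a single cell. Psmd14 kept its call in 7 and lost it without WT cell 1. Psma1 (lost without KO cells 2 or 4), Psmb4 (KO cells 2 or 3) and Psmd13 (WT cell 1 or KO cell 2) kept theirs in 6. Psmd4 kept it in 5 (lost without WT cells 2 or 4 or KO cell 1) and Psma6 in 4 (WT cells 1 or 4 or KO cells 2 or 3). Without KO cell 2, 2 of 29 present members were at least 5-fold lower, and only Psmd14 was shared with the 5 above. Over all present genes 9.90% were then lower, so the members' share was no longer above that of genes at large.

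**Figure D2:**
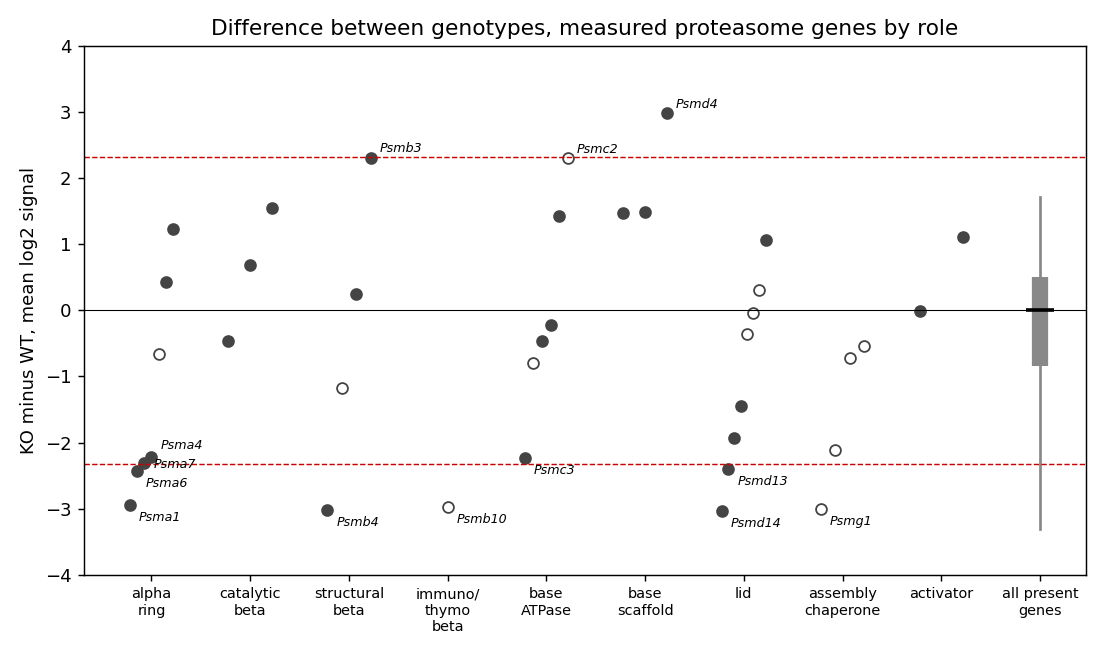
KO minus WT difference of mean log2 signal for the 38 measured members by role (filled, present in all 4 cells of a genotype; open, not), beside all 3364 present genes (bar, 25th to 75th percentile; line, 5th to 95th; tick, median). Dashed lines mark 5-fold. The 3 base scaffold genes lie above 0 and the 4 assembly chaperones below it, and 5 filled points lie below the lower line.

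The core genes were lower by more than the regulators. The median difference was -0.66 over 15 measured core genes and -0.04 over 19 measured regulator genes. Of the present genes, 3 of 12 core genes (25%) were at least 5-fold lower and 0 higher, against 2 lower (14.3%) and 1 higher (7.14%) of 14 regulator genes. Over all present genes the shares were 10.7% lower and 2.68% higher. Each class count is of 3 genes or fewer, so the counts do not separate the classes. To follow this in single cells, each gene was centred on its mean over the 8 cells and averaged by class, and the result is called the score. In the order of the cells, the core score was -1.66, 0.33, 1.70 and 1.19 in WT cells and 0.67, -2.29, -0.82 and 0.87 in KO cells. The regulator score was -1.28, -0.25, 0.87 and 0.74 in WT cells and -0.10, -1.36, 0.38 and 0.99 in KO cells. Both classes were lowest in WT cell 1 and KO cell 2, and both overlapped widely between genotypes. Core minus regulator was -0.38, 0.58, 0.83 and 0.45 in WT cells and 0.77, -0.93, -1.19 and -0.12 in KO cells. Its means of 0.37 ± 0.53 and -0.37 ± 0.89 (SD, n = 4 cells) differed by -0.74, which is about the pooled SD between cells of 0.73, with WT cell 1 inside the KO range and KO cell 1 inside the WT range. The core median turned to 0.37 without KO cell 2 and to 0.09 without WT cell 3. The regulator median was -1.03 without WT cell 1 and turned positive without WT cell 3, WT cell 4, KO cell 1 or KO cell 2, at up to 0.60. Over the members detected in all 8 cells both medians were positive, at 0.69 for core and 0.54 for regulator genes.

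**Figure D3:**
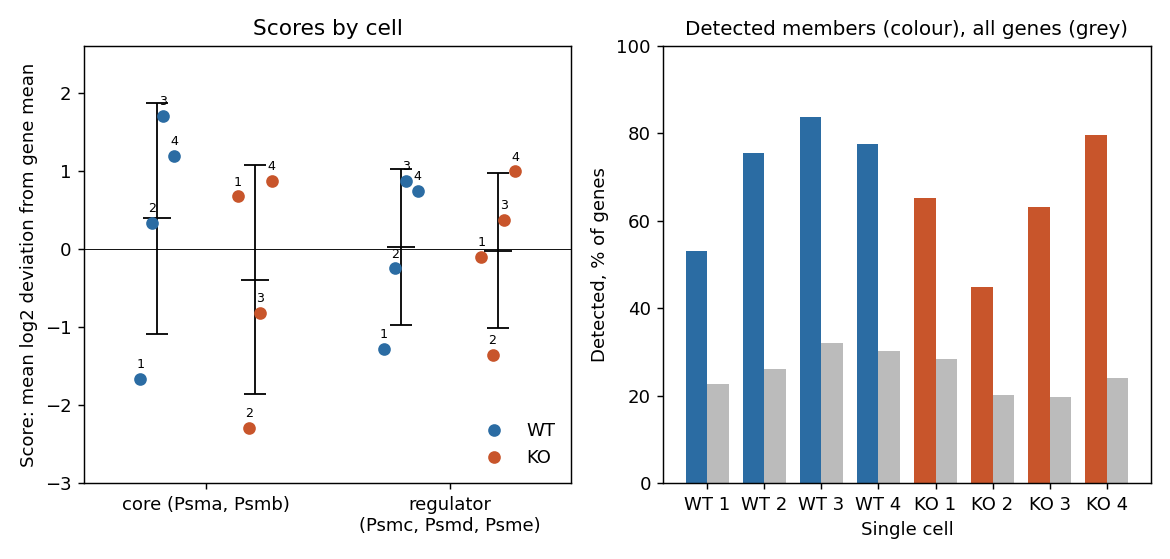
Left, score of the core and regulator genes in each cell (points, numbered by cell; mean and SD over 4 cells in black). Right, percentage of the 49 members (colour) and of all 22594 genes (grey) detected in each cell. WT cell 1 and KO cell 2 are lowest for both scores and have the fewest members detected of their genotypes.

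The low cells can be described by which members they lacked. Of genes detected in at least 6 of the other 7 cells, KO cell 2 lacked 12 of 28 members (42.9%) and 14.9% of all genes. WT cell 1 lacked 6 of 28 members (21.4%) and 10.8% of all genes. KO cell 3 lacked 4 of 26 members (15.4%) and 14.1% of all genes, and the remaining cells lacked 0 or 1 member and 2.23% to 7.67% of all genes. KO cells 2 and 3 thus lacked about the same share of all genes but not of proteasome genes. The members missing from KO cell 2 were Psma1, Psma2, Psma4, Psma5, Psma6, Psmc3, Psmc6, Psmd2, Psmd8, Psmd11, Psmd12 and Psmd13, and those missing from WT cell 1 were Psma5, Psmc5, Psmc6, Psmd6, Psmd11 and Psmg2. A gene could be on both lists only if all 6 remaining cells had it, as Psma5, Psmc6 and Psmd11 did. The part of amplification and of cell state in these gaps was not tested.

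Members varied more between cells of the same genotype than measured genes did in general. The median SD within genotypes was 2.65 over the 38 measured members and 1.5 over all 5425 measured genes. With only genes above the floor in at least 4 cells, a limit chosen after seeing the data, it was 2.65 over 36 members and 1.94 over 3515 genes. It was 2.57 over core and 2.83 over regulator genes. The 8 genes of the CCT chaperonin, another large ring complex, had a median SD of 1.71, and 2 of 8 were at the floor in some cell. Their median KO minus WT difference was -1.10, with 7 lower and 1 higher in mean, so lower signal in KO was not particular to proteasome genes. The share at the floor in some cell was 84.2% of measured members and 78.6% of all measured genes. Among genes above the floor in at least 4 cells it was 83.3% of members and 66.9% of all genes. The larger spread of members thus came with more values at the floor. No test was made of these differences.

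Where a gene had another probe, the gaps could be read again. Of 13 further member probes, 6 were detected in at least 4 cells, and for 5 of these (Psma4, Psmb5, Psmc2, Psmc3 and Psmg1) the same cells were at the floor by both probes in all 8 cells. For Psmc1 this held in 7 cells. Pearson's r over the 8 cells, which share the same labelled sample for both probes, was 0.939 to 0.9996, highest for the overlapping Psmc2 pair. The KO minus WT difference had the same sign in all 6 genes. Of the other 7 probes, which were detected in 0 to 2 cells, that of Psmd12 was detected in 1 cell against 6 for the main probe, with a difference of -0.47 against -1.93, that of Psmg2 in 2 cells against 6, and that of Psme4 in none against 3. For these 3 genes the cells at the floor were not the same by both probes. Among the 6 the size moved, from 1.43 to 0.35 for Psmc1 and from -3.0 to -1.74 for Psmg1. Psmb5 is shown as an example of probes that do not overlap. The main one holds the letters of a poly(A) signal, shown in capitals (bases 27 to 56 of the probe at chr14:55232957-55233016, mm9, minus strand), and the other lies at chr14:55233161-55233220:

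Psmb5 main probe, part: ctccatggctatAATAAAtaatagtacctc

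Psmb5 other probe: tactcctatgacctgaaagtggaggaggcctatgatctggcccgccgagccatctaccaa

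Both had WT cell 1 at the floor. The main probe read 11.55 to 14.09 and the other 9.94 to 12.06 in the remaining 7 cells.

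**Figure D4:**
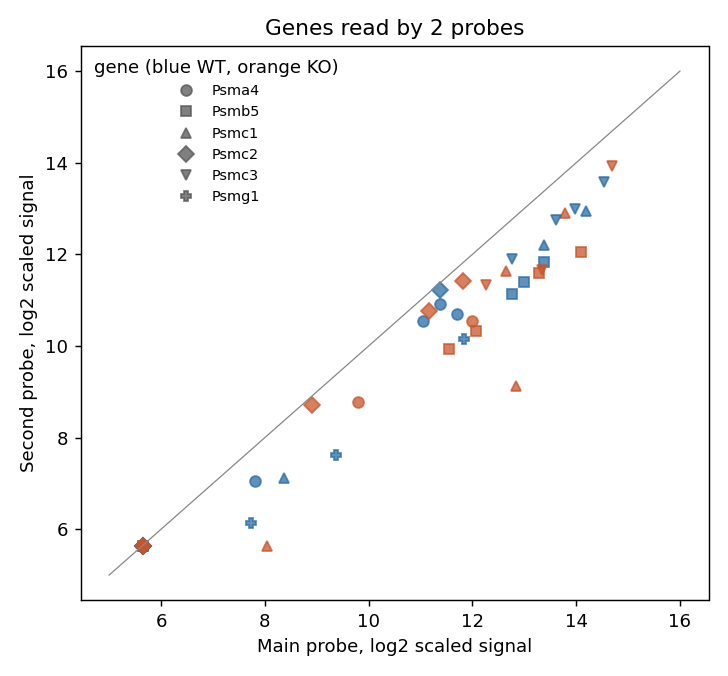
Log2 scaled signal of the main probe (x) against the other probe (y) for the 6 genes whose other probe was detected in at least 4 cells, with 8 cells per gene (blue WT, orange KO) and the line of equality. Cells at the floor by the main probe are at the floor by the other, and 1 Psmc1 point at 8.04 on x is at the floor on y.

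Members whose probe holds a poly(A) signal were more often detected in all 8 cells, but not more often in at least 4. The study's cDNA primer was an oligo-dT, which anneals at the poly(A) tail. The letters AATAAA or ATTAAA, read on the probe strand alone, were in 10 of the 49 main probes, and 6 of these 10 (60%) were detected in all 8 cells, against 7 of 39 (17.9%) without the letters. In at least 4 cells, 80% and 76.9% were detected. Over all genes, 14.9% of 4182 with the letters and 8.54% of 18412 without were detected in all 8 cells. In at least 4 cells these shares were 31.2% and 22.4%, so genes at large differed there too. The signals are shown in capitals within stretches of 30 bases, for the members detected in all 8 cells:

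Psma3: tgaccgattttcATTAAAttttgtcttata

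Psmb3: cttttgtttttctttttAATAAAattgcct

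Psmb6: gacgcagaagctAATAAAcagtttgttaaa

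Psmc1: ctctctactcccAATAAAggattggcctgg

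Psmd4: cctttatgatggAATAAAgcttggcaagtt

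The sixth is Psmb5 above. Psmc2 and Psmc3 had the letters and were detected in fewer cells:

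Psmc2: ttgttgccaccgcacaaaAATAAAagattt

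Psmc3: gctaaagttgatAATAAAaggtgttttctg

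Psmc2 was detected in 4 cells and Psmc3 in 7, and the remaining 2 members with the letters, Psme2b and Psma8, in 3 and 0. A probe with these letters was therefore not always detected. How near each probe lies to the tail was not measured, and no test of the share was made.

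Some members are uncertain as to which gene the probe reads. The file gave a position for 40 of the 49 main probes. For Psma4 and Psma5 it was on another chromosome than the RefSeq gene, and the same held for the other Psma4 and Psmc1 probes. Both Psma4 probes lie near each other on chr18, so their like readings do not show that the named gene was read. Whether these probes read the named gene, a near-identical copy or both was not tested.

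Genes around the proteasome were read in lists chosen with earlier results known. Of 9 partner genes on the array, 4 were measured and 3 present, and none of the present genes passed the 5-fold rule. The ubiquitin receptor Adrm1 was at 9.18 ± 1.84 in WT and 10.13 ± 4.43 in KO cells (SD, n = 4 cells), and the core maturation factor Pomp was detected in 2 WT and 3 KO cells. Of 5 present shuttle and unfolding genes, 1 was at least 5-fold lower (Nsfl1c, a cofactor of the unfoldase, -2.84) and none higher, beside 10.7% lower and 2.68% higher of all present genes. Vcp, the unfoldase itself, was even, at 13.38 ± 0.48 and 13.29 ± 1.48.

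Uba1, the enzyme that activates ubiquitin, had a difference of -2.41, with KO cell 3 at the floor and the other KO cells at 11.44 to 14.09. Of 12 present E2 enzymes, 3 were at least 5-fold lower (Ube2c, Ube2s and Ube2e3, at -4.11, -3.97 and -2.43) and none higher, beside the same 10.7% and 2.68%. Ube2r2, which was measured but not present, had a difference of -4.37. Ube2c and Ube2s work with the anaphase-promoting complex, and all 3 are on the list the study drew from these arrays, so they are not independent evidence. KO cells 1 and 3 were each at the floor for 3 of the 4 genes Uba1, Ube2c, Ube2s and Ube2e3, KO cell 2 for 2 of them and KO cell 4 for 1.

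Of 6 genes that control proteasome gene transcription, only Nfe2l2 was measured, at -1.61, and Nfe2l1 lay at the floor in all 8 cells. The letters TGACNNNGC, the core of the element bound by these factors, were in 6 of 43 RefSeq promoters of members (GRCm38.p6, 250 bases before to 50 after the start, both strands) and in 12.4% of all 32851 promoters, and CCAAT was in 15 of 43 and in 37.4%. The members' shares, 13.95% and 34.9%, were near those of all promoters.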

How the data were processed

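The deposited files were Agilent Feature Extraction output (version 12.0.2.2 as each header states), with 1 array a cell and intensity values on a linear scale, background-corrected by the software for the authors before they were deposited. Members and gene lists were chosen with earlier results of these data known. Control spots and outlier-flagged spots (146 to 220 per array) were left out, and replicate spots were averaged in log2 for each of 55681 probes. Arrays were shifted so that their 50th percentile over the 5301 probes detected on all arrays was equal, and signals under 50 were set to 50, after the 50th percentile and the floor stated in the methods. Detected is the software's flag for well above background, measured is detected in at least 4 of 8 cells, and present is detected in all 4 cells of a genotype. The size rule was 5-fold. Values in every cell are given for members that were present and at least 5-fold apart, members with genotypes that did not overlap, the 5 largest differences each way, the catalytic and immune subunits, Psmd14, and the 3 smallest and 3 largest spreads. Their number limits the precision, and no test was made, since a genotype is 1 sample. The alternatives were other scalings, quantile normalization and normexp (limma 3.58.1 in R 4.3.3), no floor, other filters, other probes and other cells. The calculations ran in Python 3.11.15 with pandas 2.3.3, and the code was tested on simulated data. Every simulated gene counted as detected in every cell, with less spread between cells than the members had. That check therefore covers the arithmetic and not how the 5-fold rule behaves with gaps in detection. Some genes of the surrounding lists are not reported here.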

Additional observations from a re-analysis of the deposited data

Results flagged for a closer look

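In groups of 4 cells, 10 of 54 sets of values had an extreme cell whose gap to the next took up more of the range than the critical value of Dixon's gap test, which chance passes in about 1 of 20 groups. Most sets are members named for large differences or spreads, and many hold ties at the floor, so the number of sets past the limit is not a result. Of these, 6 were single cells at the floor of 5.64. They were KO cell 2 for Psma2, Psmb7, Psmd2 and Psmd13, whose other KO cells were at 12.93 to 13.63, 11.68 to 12.25, 12.37 to 13.36 and 9.44 to 9.98, and WT cell 1 for Psmb5 and Psmb6, whose other WT cells were at 12.76 to 13.37 and 13.37 to 13.53. The reverse, a single cell above 3 at the floor, held for Psmc2 in WT cell 3 (11.38), Psmd12 in KO cell 4 (12.84) and Psmd14 in KO cell 2 (7.62). Psma1 in WT cell 2 (10.61) was low beside 12.004 to 12.19. Values at the floor have no order, so these gaps are set in part by the floor.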

How the results depend on the processing

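The differences of means rest on 4 cells a genotype and on the floor. Leaving out 1 cell at a time gave -1.35 to 0.11 for the median of all measured members, -1.82 to 0.37 for core genes, -1.03 to 0.60 for regulator genes, -1.12 to -0.36 for core minus regulator and -7.67 to -1.50 for members detected per cell (-4.50 with all cells), and 2 to 9 members lower and 1 to 4 higher by the 5-fold rule. Over all present genes the single leave-outs gave 9.90% to 16.2% at least 5-fold lower and 2.27% to 4.71% higher. The mean number of members detected per cell was 35.5 in WT and 31 in KO. Over all genes on the array it was 6265 in WT and 5211 in KO, so genes at large were also detected less often in KO. The regulator median was -1.03 without WT cell 1. Over the 13 members detected in all 8 cells the core, regulator and member medians turned to 0.69, 0.54 and 0.69, core minus regulator was -0.17, and 0 members were at least 5-fold lower. Of all genes detected in all 8 cells, 2.87% were at least 5-fold lower. Members at least 5-fold lower numbered 8 under scaling on the 75th percentile, 9 with no floor and 10 under a 2-fold rule, each of 26 present. Over all present genes the lower shares were 11.8%, 16.3% and 23.1%. Members at least 5-fold higher numbered 2 with no floor, 2 with no detection filter, 3 by the median of cells and 9 under a 2-fold rule. These were of 26 present members, or of all 49 with no detection filter. Over all genes in those settings the higher shares were 4.46%, 0.886%, 3.54% and 12.5%. WT cell 1 and KO cell 2 were also left out together, after the data were seen. Then 7 of 36 present members were lower and 2 higher, and 1 of the 7 was among the 5. Over all present genes the shares were then 15.5% and 3.64%. Quantile normalization gave 5 lower members of 26 present, beside 8.98% of all present genes. Of these members 2 were among the 5 of the main setting, and the regulator median was 0.43. The median of all measured genes moved from 0.00 to 0.14 under normexp, and by under 0.1 under the other scalings. Of 352 differences of named members under the alternatives, 347 moved by less than the SD between cells and 5 by more (Psmb8 and Psmb9, which lay at the floor, under normexp and with no floor, and Psmd14, at -6.39 with no floor), and no difference past 5-fold changed sign. Leaving out 1 of 4 cells cannot move a difference by as much as that SD, so the 347 is no measure of stability. Smaller differences did change sign within it, as for Psmb7, at -0.46 with all cells and 1.11 without KO cell 2. A fit with slide as a block was not run, since each slide held 1 genotype. No paired analysis was possible because the replicate numbers only name cells and no result comes from a test. A member at the floor in a cell is not shown to be absent from it.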
